A study of Mus musculus with 8 samples.

Results

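The genes described here carry the unfolded protein response, which cells mount when proteins misfold in the endoplasmic reticulum (ER), and the integrated stress response, which slows protein synthesis and switches on the transcription factor ATF4. They were chosen by name, as 32 genes in 4 groups: 15 ER chaperones and folding enzymes, 6 genes of ER-associated degradation, 4 sensors and their factors, and 7 genes of the ATF4/CHOP arm. Probe sets were found by gene symbol in the platform annotation, and 30 of the 32 genes were measured, out of 19505 genes on the array. Pdia4 and Manf were not analysed here.

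Whole uterus was taken from wildtype C57BL/6J females, an inbred strain, on day 4.5 of pseudopregnancy, 1 mouse to an array. Both groups had been mated to vasectomised males, so the uteri were under the hormones of early pregnancy and held no embryo. The exposed group (4 mice, labelled ecig) inhaled unflavoured e-cigarette aerosol, made at 245 °C from nicotine (24 mg/mL) in a mix of vegetable glycerin and propylene glycol. Sessions lasted 3 hours at 2 puffs per minute and ran on 5 days a week over the 4 weeks that preceded mating, and each day after it up to the morning of collection. The sham group (4 mice) breathed room air. Values are the deposited log2 expression values, and a difference is exposed minus sham on the log2 scale unless stated.

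As background, the ER holds its own set of chaperones, of which BiP, encoded by Hspa5, is the best known. Unfolded protein draws BiP away from the sensors IRE1, PERK and ATF6. IRE1 then splices the mRNA of Xbp1, ATF6 is cut to a free transcription factor, and both raise chaperones and degradation genes through ER stress response elements in promoters. PERK phosphorylates eIF2 and so favours translation of ATF4, which induces amino acid genes such as Asns and the factor CHOP (Ddit3). Secretory cells, such as those of uterine glands and plasma cells, rely on the XBP1 branch even without stress.

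Much of the control over these proteins lies outside mRNA level (splicing of Xbp1, cleavage of ATF6, translation of Atf4), which the arrays do not show. In whole tissue, fewer cells of a type and less RNA per cell cannot be told apart. The arrays of exposed mice 4 and 2 stood apart from the rest, with a mean correlation to the other arrays of 0.977 and 0.982, against 0.986 to 0.987 for the other 6. The mean over 10 measured stroma markers was 10.24 to 10.50 in exposed and 10.48 to 10.53 in sham mice, with exposed mouse 2 lowest, where Col1a1 and Col3a1 stood at -1.47 and -1.05 from the sham mean. The mean over 10 smooth muscle markers was 9.95 to 10.51 in exposed and 10.28 to 10.64 in sham mice. Of 11 measured markers of luminal epithelium, 3 had higher and 8 lower means in exposed mice, 3 of them lower at an unadjusted p under 0.05, and the list mean was 8.12 to 8.56 in exposed and 8.55 to 8.85 in sham mice. Exposed mouse 4 was lowest (-0.57 from the sham mean), and Cldn7, a tight junction gene, lay below all sham mice in all 4 exposed mice. The mean over 8 measured pancreas markers, cells that also carry much ER, was 5.59 to 5.74 in exposed and 5.52 to 5.66 in sham mice, where the median of all probe sets was 7.08.

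Promoter sequences, from 250 bases before to 50 after the gene start in RefSeq (build GRCm38.p6), were at hand for 28 of the 32 listed genes. Those of Atf6, Derl1, Hyou1 and Manf were not used here. The ER stress response element (ERSE: CCAAT, then 9 bases of any kind, then CCACG, searched on both strands) was found in 9 of these 28 promoters (32.1%), against 39 of 32851 promoters in the whole table (0.119%). The ERSE sites are shown because this was the most frequent of the 4 elements searched among the members. They stand 5′ to 3′ along each gene with the element in capitals and 10 bases on either side, and Hsp90b1 holds it in both directions:
Hspa5 at chr2:34772015-34772053, plus strand: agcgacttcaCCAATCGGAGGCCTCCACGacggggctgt
Hsp90b1 at chr10:86705628-86705666, minus strand: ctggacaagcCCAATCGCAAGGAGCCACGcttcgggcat
Hsp90b1 at chr10:86705523-86705561, minus strand: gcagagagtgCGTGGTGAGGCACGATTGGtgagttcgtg
Calr at chr8:84847065-84847103, minus strand: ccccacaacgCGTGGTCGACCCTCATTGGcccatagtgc
Canx at chr11:50325790-50325828, minus strand: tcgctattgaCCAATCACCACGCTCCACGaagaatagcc
Pdia6 at chr12:17266481-17266519, plus strand: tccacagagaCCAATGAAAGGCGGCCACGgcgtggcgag
Dnajc3 at chr14:118937817-118937855, plus strand: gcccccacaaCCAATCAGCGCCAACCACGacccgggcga
Creld2 at chr15:88819510-88819548, plus strand: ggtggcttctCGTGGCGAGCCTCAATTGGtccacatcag
Syvn1 at chr19:6046522-6046560, plus strand: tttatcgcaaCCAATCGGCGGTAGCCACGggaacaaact
Derl3 at chr10:75893232-75893270, plus strand: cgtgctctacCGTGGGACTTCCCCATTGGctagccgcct

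All 10 sites lay before the gene start, with a first base from position -212 (Hsp90b1) to -44 (Syvn1), counted from the start. A shorter form, ERSE-II (ATTGG, 1 base of any kind, CCACG), was found in Herpud1 and Dnajb11, 2 of 28 promoters (7.14%) against 0.0365% of all promoters. The core of the composite element bound by ATF4 with a C/EBP factor (TGATGNAA, both strands) was found in Asns, Chac1, Trib3 and Herpud1, 4 of 28 (14.3%) against 3.97% of all, and TGACGTGG, a site for spliced XBP1, in 0 of 28 against 0.676% of all. Matches of letters are a description of these windows and do not show that a factor was bound. The shares are a description too, since the members were chosen by name as genes of this response. The upstream 250 bases of Herpud1, the member with the smallest p-value among those with higher means, are shown because they hold the elements of both branches, first the core bound by ATF4 and then ERSE-II, in capitals, with the sites of Asns and Chac1 for comparison:
Herpud1 at chr8:94386179-94386428, plus strand: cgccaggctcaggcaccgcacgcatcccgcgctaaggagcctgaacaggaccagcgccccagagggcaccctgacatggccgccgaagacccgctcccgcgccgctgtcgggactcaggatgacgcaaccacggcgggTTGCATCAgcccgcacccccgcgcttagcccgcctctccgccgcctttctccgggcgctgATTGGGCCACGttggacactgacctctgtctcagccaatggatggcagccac
Asns at chr6:7693215-7693242, minus strand: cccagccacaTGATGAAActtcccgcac
Chac1 at chr2:119351039-119351066, plus strand: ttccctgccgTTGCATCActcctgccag

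The comparison of exposed with sham mice asks whether inhaled aerosol altered these stress pathways in the uterus around the time of receptivity. With limma p-values adjusted by Benjamini-Hochberg across the 22206 probe sets of the array, 0 members passed 0.05, as did 0 probe sets in all (0%), while 1203 probe sets were under 0.05 unadjusted. At an unadjusted p under 0.05, 1 of 30 members had a higher mean in exposed mice (Herpud1) and 1 a lower mean (Asns), where 2.91% of all probe sets were higher and 2.5% lower at that level. The members' share was thus near that of the array. The median difference over the 30 members was -0.00492, against -0.000543 over all genes, with 13 members higher and 17 lower in mean. In 0 of 30 members did all 4 exposed values lie above all sham values, and in 0 of 30 below, where the array had 1.38% and 1.35% of such probe sets.

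**Figure D1:**
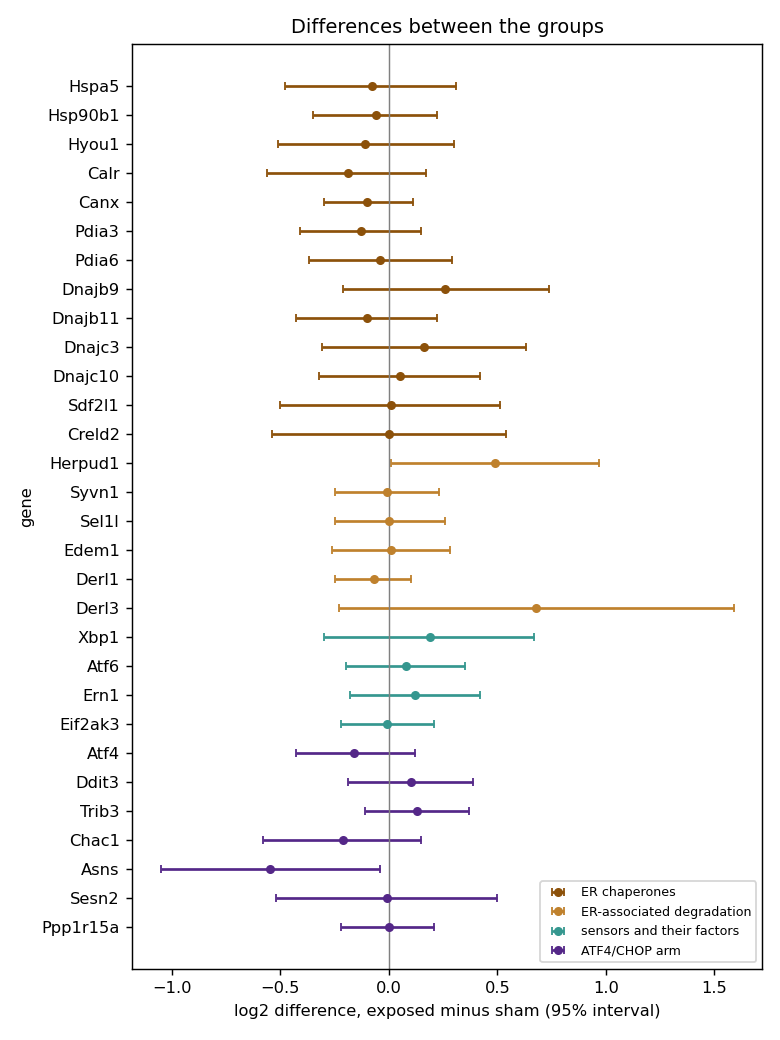
Log2 difference between exposed and sham uteri for each of the 30 measured genes, with the 95% interval of limma's fit (4 mice in each group), coloured by gene group. The interval leaves out 0 for Herpud1 (0.01 to 0.97) and Asns (-1.05 to -0.04), and neither passed the adjusted test.

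The exposed mice differed more among themselves than the sham mice did, over the members and over the array, and this spread was not tested. The SD between exposed mice was larger than that between sham mice for 24 of 30 members (80%), and for 65.8% of all probe sets. Exposed mouse 4 lay above the whole sham range for 16 members and below it for 2, and exposed mouse 2 lay below it for 18 and above it for 5. On the array as a whole, mouse 4 lay above the sham range for 31.2% of probe sets and below it for 28.2%, and mouse 2 above it for 27.7% and below it for 25.2%. Exposed mouse 1 lay below the sham range for 10 members and above it for 0 (array 21.8% and 19.4%), and exposed mouse 3 above it for 8 and below it for 1 (array 19.6% and 21.2%).

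**Figure D2:**
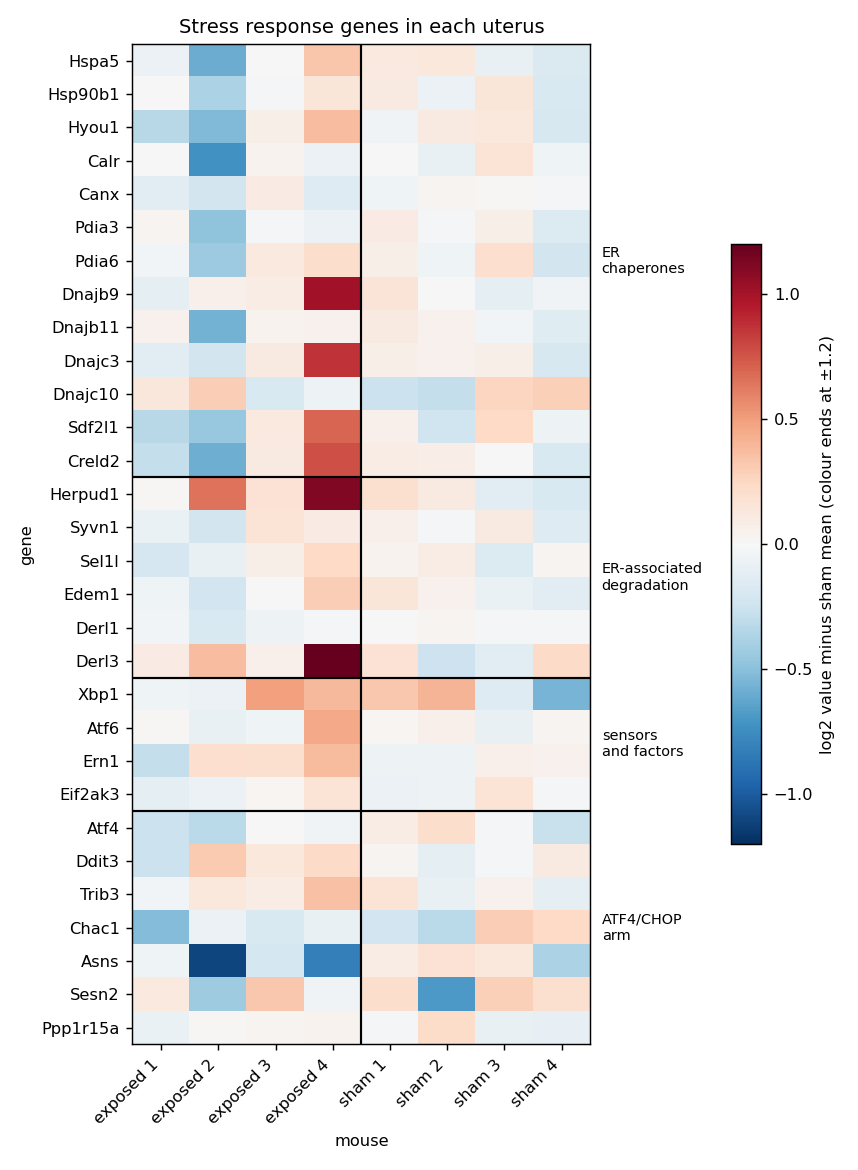
Log2 value minus the sham mean for 30 genes (rows, by gene group) in 4 exposed and 4 sham mice (columns); red is above and blue below the sham mean, and the colour ends at 1.2, which Derl3 exceeds in exposed mouse 4 (2.19). Exposed mouse 4 is red over many chaperones and degradation genes and exposed mouse 2 blue over most chaperones, while Asns is blue in both.

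Of the 13 measured chaperones and folding enzymes, 4 had higher and 9 lower means in exposed mice, and 0 passed at an unadjusted p under 0.05. Hspa5, the central ER chaperone, had log2 values of 11.62, 11.09, 11.69 and 12.02 in exposed mice 1 to 4, against 11.81, 11.82, 11.60 and 11.52 in sham mice 1 to 4. The exposed mice thus hold both the lowest and the highest value, with the sham mice between them, and the difference was -0.08 ± 0.18 (SE), with a 95% interval of -0.48 to 0.31. The other abundant members of the folding machinery had means close to each other: the difference was -0.06 for Hsp90b1, the ER form of HSP90 (11.66 in exposed and 11.72 in sham mice), -0.11 for Hyou1, a large chaperone that serves BiP (9.63 and 9.73), and -0.04 for Pdia6, a disulfide isomerase (10.47 and 10.51).

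Calr and Canx, the lectin chaperones that hold newly glycosylated proteins, and Pdia3, the disulfide isomerase that works with them, had the next smallest p-values of the group after Dnajb9. Calr had values of 11.75, 11.02, 11.79 and 11.68 in exposed mice, against 11.75, 11.66, 11.91 and 11.70 in sham mice, a difference of -0.19 ± 0.16 (SE, limma adjusted p = 0.852). Pdia3 had values of 10.90, 10.39, 10.86 and 10.80 in exposed mice, against 10.97, 10.85, 10.94 and 10.71 in sham mice (-0.13 ± 0.13). For both genes exposed mouse 2 was the lowest of all 8, and the other 3 exposed mice lay within the sham range. Without that mouse the differences were -0.0135 for Calr and -0.0119 for Pdia3. Canx had values of 10.58, 10.49, 10.81 and 10.56 in exposed mice, against 10.66, 10.74, 10.72 and 10.70 in sham mice, so that exposed mouse 3 lay above and the other 3 exposed mice below the sham mice (-0.10 ± 0.09).

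The co-chaperones of the DnaJ family, which hand substrates to BiP, split between the mice. Dnajb9 had values of 8.67, 8.84, 8.87 and 9.79 in exposed mice, against 8.93, 8.78, 8.67 and 8.74 in sham mice. Exposed mouse 4 alone lay above the sham mice, by 1.01 over their mean, and the group difference was 0.26 ± 0.21 (SE, limma adjusted p = 0.852), or 0.0135 without that mouse. Dnajc3, which also restrains PERK-family kinases, was 0.87 above the sham mean in exposed mouse 4 (9.97) and -0.22 in exposed mouse 2 (8.88), with group means of 9.26 in exposed and 9.10 in sham mice. Dnajb11 stood at 7.20 in exposed mouse 2 and at 7.81 to 7.82 in the other exposed mice, against 7.62 to 7.88 in sham mice. Dnajc10, an ER reductase, ran the other way, with its highest exposed value, 10.70, in exposed mouse 2 (group means 10.45 and 10.40).

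Sdf2l1, which assists BiP cycles, and Creld2, an ER protein strongly induced by ER stress, had nearly equal group means with opposite mice on either side. Creld2 had values of 8.08, 7.78, 8.48 and 9.14 in exposed mice, against 8.46, 8.45, 8.37 and 8.19 in sham mice (means 8.37 and 8.37). Sdf2l1 ran from 7.29 in exposed mouse 2 to 8.44 in exposed mouse 4, and from 7.50 to 7.98 in sham mice (means 7.75 and 7.74). These genes and Dnajc3 are named in full because of their values in mouse 4. Counted over the group, exposed mouse 4 lay above the sham range for 7 of 13 chaperones and below it for 1, and exposed mouse 2 below it for 11 of 13 and above it for 1.

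Of 6 genes of ER-associated degradation, which brings misfolded protein back to the cytosol, 4 had higher and 2 lower means. Herpud1, an ER membrane protein that organises the degradation complex, had values of 9.25, 9.89, 9.41 and 10.35 in exposed mice, against 9.43, 9.35, 9.11 and 9.06 in sham mice. Exposed mice 2 and 4 lay above all sham mice and exposed mice 1 and 3 within their range, with a difference of 0.49 ± 0.22 (SE), or 1.40-fold (limma adjusted p = 0.838). Without exposed mouse 4 the difference was 0.28. Derl3, a derlin of the retrotranslocation channel, had values of 6.63, 6.90, 6.59 and 8.73 in exposed mice, against 6.70, 6.28, 6.40 and 6.76 in sham mice. Exposed mouse 4 exceeded the sham mean by 2.19, the largest deviation of any member in any exposed mouse, and the group difference of 0.68 ± 0.41 (SE, limma adjusted p = 0.838) was 0.174 without it.

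The remaining degradation genes had smaller differences. Derl1, another derlin, had values of 8.80, 8.65, 8.77 and 8.82 in exposed mice, against 8.83, 8.86, 8.81 and 8.82 in sham mice, so that 3 exposed mice lay just below all sham mice (-0.07 ± 0.08, SE). Syvn1, the ubiquitin ligase HRD1, had values of 8.36, 8.22, 8.60 and 8.54 in exposed mice, against 8.50, 8.42, 8.55 and 8.29 in sham mice (-0.01 ± 0.11). Its partner Sel1l averaged 8.57 ± 0.19 in exposed and 8.56 ± 0.11 in sham mice, and Edem1, which selects glycoproteins for degradation, 8.71 ± 0.22 and 8.71 ± 0.13 (SD, n = 4 each). In exposed mouse 4, 4 of the 6 genes lay above the sham range (Herpud1, Derl3, Sel1l and Edem1).

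Of the sensors and their factors, 3 had higher and 1 a lower mean. Xbp1 had values of 10.09, 10.07, 10.63 and 10.53 in exposed mice, against 10.46, 10.55, 9.99 and 9.58 in sham mice (0.19 ± 0.22, SE). In each group 2 mice stood high and 2 low, and the groups overlapped, with exposed mouse 3 alone above the sham range. Atf6 had values of 9.02, 8.92, 8.96 and 9.46 in exposed mice, against 9.03, 9.07, 8.92 and 9.04 in sham mice (0.08 ± 0.12), with exposed mouse 4 alone above the sham range.

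Ern1, which encodes the sensor kinase IRE1, had values of 8.90, 9.39, 9.38 and 9.57 in exposed mice, against 9.13, 9.13, 9.25 and 9.24 in sham mice. Exposed mice 2, 3 and 4 were above and exposed mouse 1 below every sham mouse, with a difference of 0.12 ± 0.13 (SE, limma adjusted p = 0.884), which was 0.259 without exposed mouse 1 and 0.0374 without exposed mouse 4. Eif2ak3, which encodes PERK, had values of 8.68, 8.72, 8.81 and 8.95 in exposed mice, against 8.72, 8.73, 8.95 and 8.78 in sham mice (-0.01 ± 0.10).

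**Figure D3:**
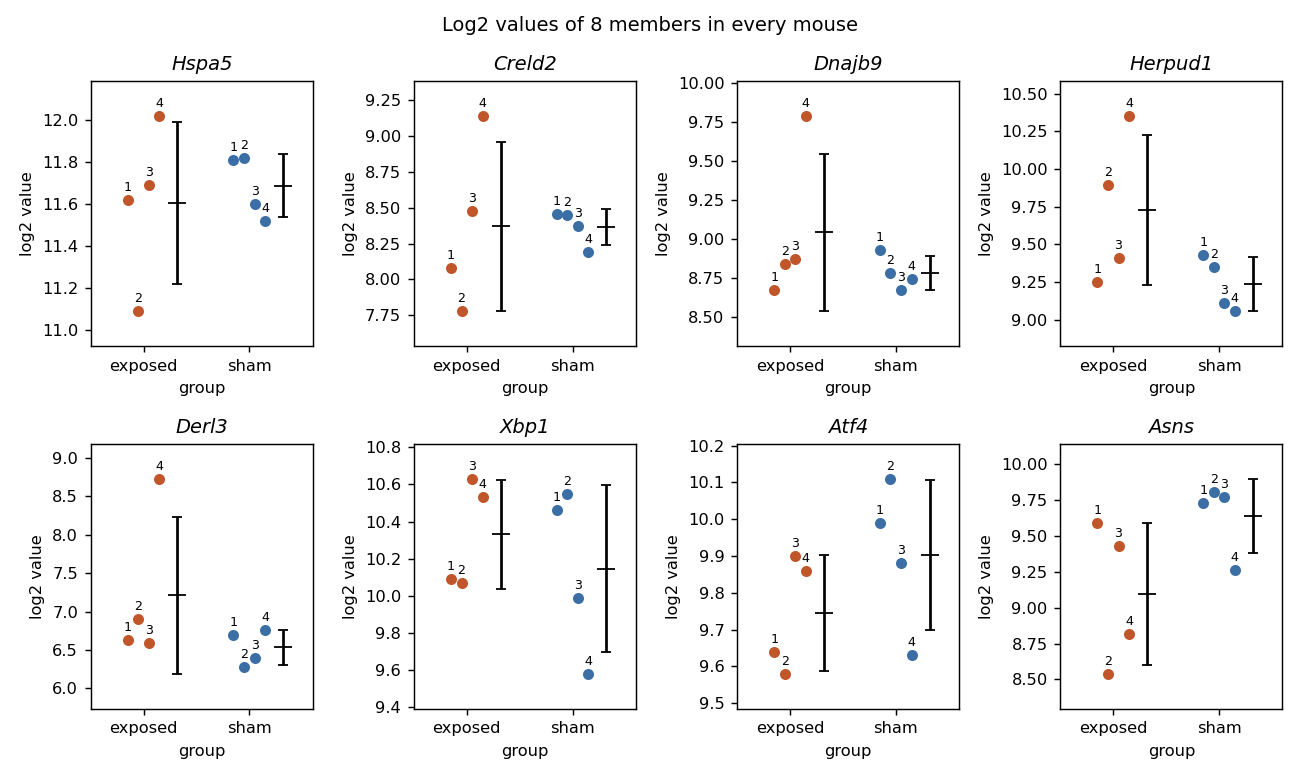
Log2 values of Hspa5, Creld2, Dnajb9, Herpud1, Derl3, Xbp1, Atf4 and Asns in each exposed mouse (left, mice 1 to 4) and each sham mouse (right), with mean ± SD beside the points. Each vertical axis covers its own range. Exposed mouse 4 has the highest value of Hspa5, Creld2, Dnajb9, Herpud1 and Derl3, and exposed mice 2 and 4 have the lowest values of Asns.

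The ATF4/CHOP arm had 2 members higher and 5 lower in mean. Atf4 mRNA had values of 9.64, 9.58, 9.90 and 9.86 in exposed mice, against 9.99, 10.11, 9.88 and 9.63 in sham mice (-0.16 ± 0.12, SE, limma adjusted p = 0.852). Ddit3, which encodes CHOP, had values of 8.32, 8.89, 8.71 and 8.81 in exposed mice, against 8.61, 8.46, 8.57 and 8.69 in sham mice (0.10 ± 0.13). Exposed mice 2, 3 and 4 thus lay above and exposed mouse 1 below all sham mice, and the difference was 0.221 without exposed mouse 1 and 0.0284 without exposed mouse 2. Trib3, a pseudokinase induced by both factors, had values of 6.89, 7.05, 7.01 and 7.27 in exposed mice, against 7.08, 6.83, 6.97 and 6.81 in sham mice (0.13 ± 0.11), with exposed mouse 4 above the sham range and a difference of 0.0612 without it.

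Asns, the asparagine synthetase gene and a standard target of ATF4, had values of 9.59, 8.54, 9.43 and 8.82 in exposed mice, against 9.73, 9.81, 9.77 and 9.26 in sham mice. Exposed mice 2 and 4 lay below all sham mice, by 1.10 and 0.82 under their mean, and the other 2 exposed mice lay among them. The difference was -0.55 ± 0.23 (SE), or 1.46-fold lower (limma adjusted p = 0.838), and -0.361 without exposed mouse 2. Chac1, which degrades glutathione, had values of 5.77, 6.22, 6.11 and 6.20 in exposed mice, against 6.06, 5.97, 6.59 and 6.53 in sham mice (-0.21 ± 0.16). Sesn2, a sestrin that restrains mTORC1, averaged 6.38 ± 0.32 in exposed and 6.39 ± 0.46 in sham mice, and Ppp1r15a, the phosphatase subunit that reverses eIF2 phosphorylation, 5.69 ± 0.05 and 5.69 ± 0.15 (SD, n = 4 each). Over the arm, exposed mouse 4 lay above the sham range for 2 of 7 members (Ddit3 and Trib3) and below it for 1 (Asns).

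Set against each other, the means of the chaperones and of the ATF4/CHOP arm were both lowest of all 8 mice in exposed mouse 2. They took different places in exposed mouse 4. The mean log2 value over 13 chaperones was 9.84, 9.56, 9.98 and 10.25 in exposed mice, against 9.97, 9.91, 10.02 and 9.83 in sham mice. Over the 7 genes of the ATF4/CHOP arm it was 7.48, 7.42, 7.65 and 7.58 in exposed mice, against 7.68, 7.54, 7.72 and 7.58 in sham mice. Exposed mouse 4 was thus 0.32 above the sham mean in chaperones and -0.06 in the ATF4/CHOP arm, and exposed mouse 2 was at -0.37 and -0.21. The low ATF4/CHOP mean of exposed mouse 2 rested largely on Asns (-1.1). There the median distance over the arm was -0.07, with 1 of 7 genes above the sham range (Ddit3) and 2 below it (Atf4 and Asns). Over the 13 chaperones that median was -0.45. In exposed mouse 4 Asns was low too (-0.82). The median distance there was -0.04 over the ATF4/CHOP arm and 0.21 over the chaperones. The difference between both means was 2.38 ± 0.22 in exposed and 2.30 ± 0.05 in sham mice (SD, n = 4 each), or 0.07 between the groups, with exposed mouse 4 highest (2.67) and exposed mouse 2 lowest (2.14) of all 8. Without exposed mouse 4 the value between the groups was -0.0249. With the median log2 level over the genes of each arm in place of the mean it was -0.155. In the ATF4/CHOP arm that median is the level of Trib3 in every mouse, so this value rests there on 1 gene. The median of the gene differences was -0.0642 over the 13 chaperones and -0.00773 over the 7 genes of the ATF4/CHOP arm. No test was made on the arm means, because the genes had been chosen with results of these data known.

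**Figure D4:**
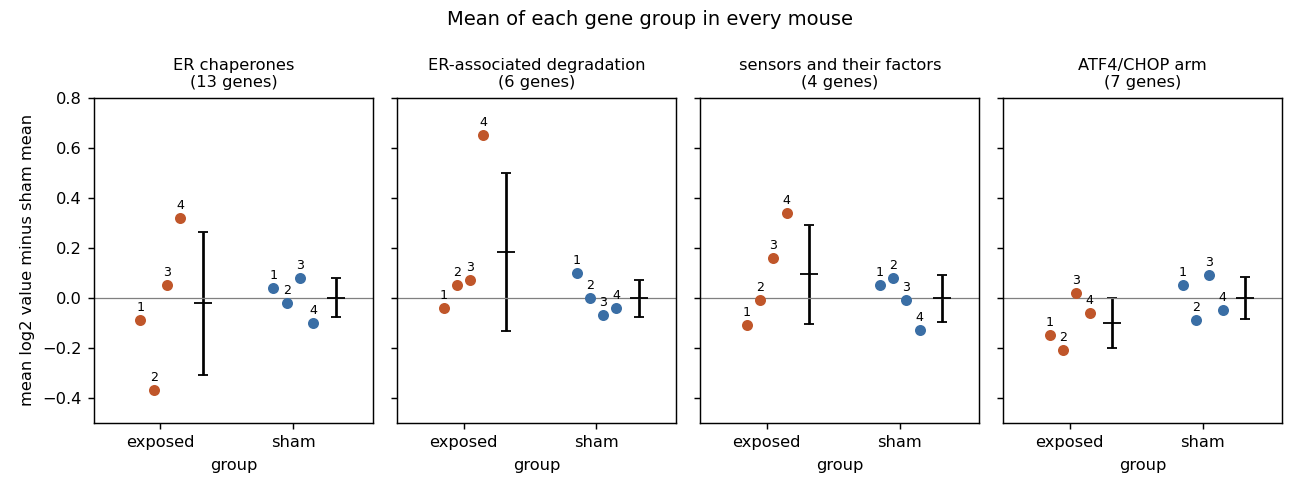
Mean log2 value of each gene group in every exposed mouse (left) and sham mouse (right), as the distance from the sham mean, with mouse numbers at the points and mean ± SD beside them. Exposed mouse 4 is highest in the first 3 panels (0.32, 0.65 and 0.34) and lies among the sham mice for the ATF4/CHOP arm (-0.06). In that arm its Asns value stood at -0.82 from the sham mean. Exposed mouse 2 is lowest of all 8 for both the chaperones (-0.37) and the ATF4/CHOP arm (-0.21), the latter largely through Asns (-1.1).

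Members whose promoters hold the ERSE were set beside the other members in the 2 outlying mice. In exposed mouse 2 the median distance from the sham mean was -0.38 over the 9 genes with the ERSE and -0.07 over the 18 measured genes with a promoter sequence and no ERSE, and 8 of the 9 and 7 of the 18 lay below the sham range. In exposed mouse 4 the medians were 0.21 and 0.19, with 5 of 9 and 9 of 18 genes above the sham range. All of the 9 but Derl3 and Syvn1 are chaperones, while the 18 hold the whole ATF4/CHOP arm, and Herpud1 and Dnajb11 with ERSE-II. The chaperones among the 18 stood in mouse 2 at -0.48 (Pdia3), -0.57 (Dnajb11), -0.45 (Sdf2l1), 0.06 (Dnajb9) and 0.3 (Dnajc10). The split by ERSE thus largely follows the gene groups, and the element was not separated from them. Of the 9, Derl3, Dnajc3 and Creld2 stood furthest above the sham mean in mouse 4 (2.19, 0.87 and 0.77), and Calr and Canx lay under it (-0.07 and -0.15). Among 19 measured genes outside the list whose promoters hold the same element, the median distance was 0.11 in exposed mouse 4 and 0 in exposed mouse 2. In mouse 4, 8 lay above and 2 below the sham range, and in mouse 2, 5 above and 2 below. Those above in mouse 4 include Ptgdr2, Acacb and 3 genes of 1 family, Xlr3a, Xlr3b and Xlr3c. Some of the 19 were dim, and Esp15, Esp18, Esp36, Olfr59, Calr4 and Tdrd9 had group means under 5.48, the 25th percentile of probe set means. With 0 members under it, the 2 sets are not alike in signal. These medians describe single mice and were not tested.

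**Figure D5:**
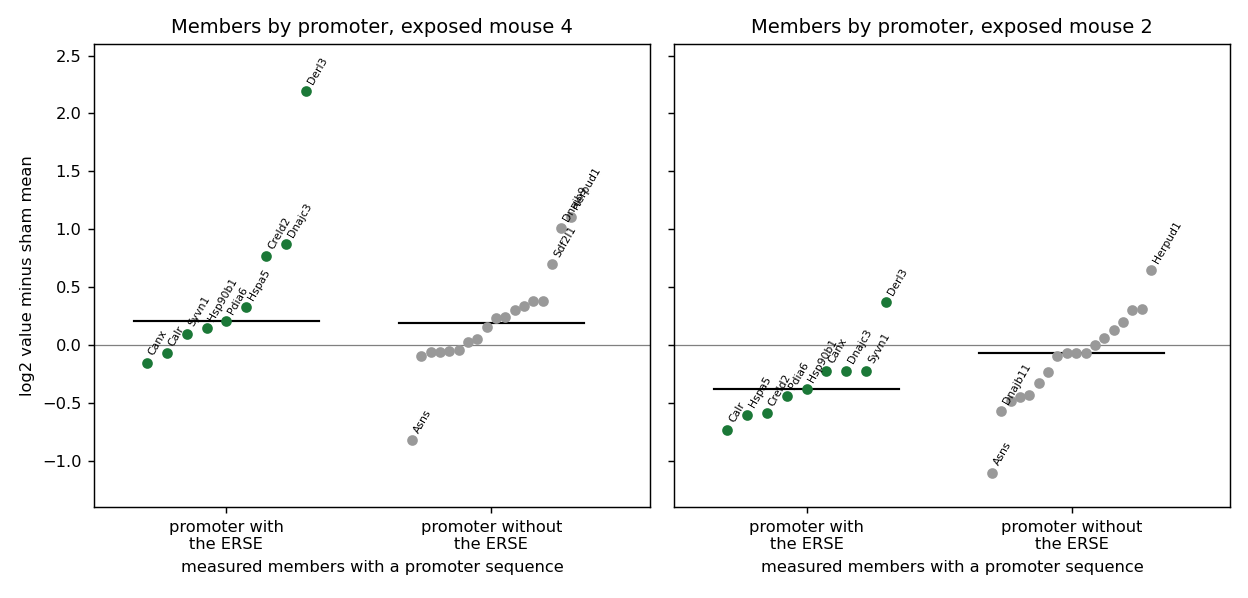
Log2 value minus the sham mean of each measured member with a promoter sequence, in exposed mouse 4 (left) and exposed mouse 2 (right), for the 9 genes with the ERSE (green) and the 18 without it (grey); bars are medians. In mouse 2 the median is -0.38 with and -0.07 without the element, and in mouse 4 it is 0.21 and 0.19. Most of the 9 are chaperones, and the 18 hold the whole ATF4/CHOP arm, and Herpud1 and Dnajb11 with ERSE-II.

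Markers of secretory cells also differed between the mice. Of 9 gland genes, all measured, the mean was 7.13 to 8.95 in exposed and 7.15 to 7.80 in sham mice. Exposed mouse 4 was at the top (1.44 over the sham mean), followed by exposed mouse 3 (0.82), and exposed mouse 2 (7.2) lay within the sham range. In mouse 4 the median distance over the 9 genes was -0.31, with 4 above the sham range and 3 below it. Of the 9, the genes furthest above the sham mean in mouse 4 were Prss28 and Prss29, the implantation serine proteases, and Spink1, a protease inhibitor. Prss28 and Prss29 reached 12.64 and 12.04 in exposed mouse 4, against 4.69 to 5.67 and 6.92 to 7.20 in sham mice, and Spink1 reached 12.22. Foxa2 and Cxcl15 were lowest of all 8 mice in exposed mouse 4, at 7.16 and 6.51, and Aldh1a1 was also below the sham range (7.08). Sox9, another gland gene, lay above the sham range there (9.13, against 7.62 to 8.64 in sham mice), and Ttr and Wfdc3 lay within it. Spink1 was also high in exposed mouse 3 (9.66) and in sham mice 1 and 2 (8.87 and 8.98) and at 6.04 to 6.69 in the other 4, and these 4 high mice were also the 4 highest for Xbp1. That match was noticed after the values were seen.

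Of 8 plasma cell markers, all measured, 7 had higher means in exposed mice, and the list mean was highest in exposed mouse 4. At an unadjusted p under 0.05, 3 of the 8 were higher, where 2.91% of all probe sets were. Mzb1 was dim (4.77 in exposed and 4.53 in sham mice), under 5.48, the 25th percentile of probe set means. Tnfrsf17 lay near that level (5.54 and 5.39). Jchain, the antibody joining chain, had values of 9.38, 9.96, 8.78 and 10.15 in exposed mice, against 8.74, 8.29, 7.42 and 9.16 in sham mice (1.16 ± 0.38, SE, limma adjusted p = 0.838). Like Herpud1 and Derl3, Jchain was highest in exposed mouse 4 and next in exposed mouse 2, a match noticed after the values were seen. Prdm1 and Irf4 had that order too, and Mzb1, Tnfrsf17, Pou2af1, Sdc1 and Cd79a did not. Sdc1 was lowest of all 8 in exposed mouse 4 (8.43), Mzb1 was highest in exposed mouse 1 (5.12), and Pou2af1 in sham mouse 4 (6.37). In exposed mouse 2 all 10 smooth muscle markers and all 7 measured macrophage markers lay below the sham range, beside the low chaperones. In exposed mouse 1 the mean over 8 measured adipocyte markers exceeded that of sham mice by 0.83 and in exposed mouse 2 by 1.05, with 5 of the 8 above the sham range in each, and these are the mice in which more members lay below the sham range than above it. Fabp4, a fatty acid carrier of fat cells, reached 7.41 in exposed mouse 1 and 8.87 in exposed mouse 2, where sham mice had 5.06 to 6.56. Proliferation markers were below the sham range for 8 of 9 genes in each of exposed mice 2 and 4. The part of these cell types in the values of the stress genes was not tested.

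Other genes of the pathway, were taken from 4 further lists. Of 34 further genes of ER folding and translocation, 8 had higher and 26 lower means, and 0 reached an unadjusted p under 0.05. Sec24d, a coat protein of ER exit vesicles (-0.25 ± 0.11, SE), Ssr1 of the translocon (-0.27 ± 0.14) and Txndc5, a disulfide isomerase (-0.34 ± 0.18), had the smallest p-values. In exposed mouse 2, 27 of the 34 lay below the sham range and 2 above it. In exposed mouse 4, 12 lay above and 11 below it, beside 7 and 1 of the 13 chaperones. The difference between these lists was not tested.

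Of 16 measured further genes of ER-associated degradation, 10 had higher and 6 lower means, and 0 reached an unadjusted p under 0.05. Erlec1, an ER lectin, stood at 10.07 ± 0.17 in exposed and 9.84 ± 0.12 in sham mice, Fam8a1, a part of the HRD1 complex, at 9.65 ± 0.11 and 9.46 ± 0.15, and Herpud2, the homologue of Herpud1, at 9.94 ± 0.22 and 9.72 ± 0.04 (SD, n = 4 each). Herpud2 was highest in exposed mice 2 (10.18) and 4 (10.06), the mice in which Herpud1 was high. In exposed mouse 4, 10 of the 16 lay above the sham range and 2 below it.

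Among 20 measured further sensors and regulators of eIF2, 5 had higher and 15 lower means, and 2 reached an unadjusted p under 0.05 as lower. Creb3l1, a membrane-bound factor related to ATF6 that is cut in the Golgi, had values of 8.63, 6.96, 8.25 and 7.59 in exposed mice, against 8.67, 8.74, 8.78 and 8.66 in sham mice. All exposed values lay below all sham values, the nearest by little, and the difference was -0.85 ± 0.29 (SE, limma adjusted p = 0.838). Bak1, a pore-forming protein of the cell death pathway that also binds IRE1, differed by -0.38 ± 0.17, with exposed mice 2 and 4 at 7.24 and 7.26 and all other mice at 7.84 to 8.10. Ppp1r15b, the constitutive partner of the eIF2 phosphatase, differed by -0.17 ± 0.10.

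Of 46 measured further targets of ATF4 and CHOP, 16 had higher and 30 lower means, with 1 higher and 2 lower at an unadjusted p under 0.05. Vldlr, a lipoprotein receptor, had values of 9.92, 10.23, 10.12 and 10.15 in exposed mice, all above the sham values of 9.82, 9.88, 9.83 and 9.61 (0.32 ± 0.10, SE, limma adjusted p = 0.838). Tars and Mars1, tRNA synthetases for threonine and methionine, differed by -0.36 ± 0.11 and -0.30 ± 0.12. Of the 46 genes, 1 (Vldlr) had all exposed values above all sham values and 2 (Mars1 and Yars) had all of them below. The array had 1.38% and 1.35% of such probe sets. Taken after the values were seen, all 11 measured tRNA synthetases of the list had lower means in exposed mice, from -0.36 upwards to a value that rounds to 0 for Sars, and their mean log2 value was 8.99, 8.73, 9.10 and 8.76 in exposed mice, against 9.04, 9.28, 9.05 and 9.01 in sham mice. Exposed mice 2 and 4, in which Asns was low, were the lowest here too.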

How the data were processed

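Total RNA of each uterus was made into biotinylated cRNA for an Affymetrix array, per the labels' protocols. The authors deposited 1 table of log2 values for 22206 probe sets and 8 mice, processed with Partek per the submitters' processing notes. The sources used here do not give the background correction, summarisation, scaling or genome build. The log2 scale is read from the values (2.75 to 13.64 on each array). The sorted columns differ by at most 0.0198, which means that the arrays share 1 distribution and that a change common to all genes would not show. Signal over background was not assessed, and precision is limited by the number of arrays.

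Symbols came from the platform annotation (19572 probe sets with 1 symbol, 2634 with none), and the probe set of highest mean stood for a gene (29 members have 1, Ddit3 has more). Differences were fitted over all probe sets with limma 3.58.1 in R 4.3.3 (lmFit, eBayes, no covariate, Benjamini-Hochberg, threshold 0.05), after tests on simulated data. Folds were computed from log2 differences. Group means over genes have no test. The members and lists were chosen with earlier results of these data known. All members are named, with values in every mouse for Hspa5, Xbp1, Atf4, Ddit3 and the 4 members of smallest p in each group, and the 3 genes of smallest p in each other pathway list. Further genes were chosen after their values were seen. Older symbols were matched through RefSeq (GRCm38.p6). Alternatives are listed in the closing section.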

Additional observations from a re-analysis of the deposited data

Results flagged for a closer look

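In 7 of 70 groups of 4 mice tested by Dixon's rule, 1 mouse lay far from the other 3. For independent groups of normal values, chance gives about 1 in 20. The groups here come from the same mice and include means built from the members, so they are not independent. The rate over all probe sets was not computed, so 7 of 70 cannot be read as an excess. Among exposed mice, mouse 2 stood low for Calr (11.02, others 11.68 to 11.79) and Dnajb11 (7.20, others 7.81 to 7.82). Exposed mouse 4 stood high for Derl3 (8.73, others 6.59 to 6.90) and for the mean of the 6 degradation genes (9.04, others 8.34 to 8.45), which holds Derl3. Among sham mice, mouse 4 stood low for Dnajc3 (8.91, others 9.15 to 9.17) and Asns (9.26, others 9.73 to 9.81), and mouse 2 for Sesn2 (5.70, others 6.58 to 6.68).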

How the results depend on the processing

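With 4 mice a group, whole tissue and values on a common distribution, small differences were not detectable, and 5 members fall out where probe sets under the 50th percentile are left out. The members' limma adjusted p ran from 0.324 to 1 over all settings, so 0 members passed in any of them. The number of members at an unadjusted p under 0.05 (2) was 1 with either filter on dim probe sets, with trend and robust moderation, with array weights and with the replicate block, and 0 with no moderation or without exposed mice 2 and 4. Leaving out 1 mouse at a time gave 0 to 4, with 4 (Herpud1, Ern1, Ddit3, Asns) without exposed mouse 1. Other pathway genes at that level (5) numbered 9 with trend and robust moderation, 3 with array weights, 9 with the replicate block, 1 without exposed mice 2 and 4, and 3 to 22 with 1 mouse left out. Over all probe sets the 1203 were 796 with the 50th percentile filter and 726 (without sham mouse 2) to 2545 (without exposed mouse 1) with 1 mouse left out, and the adjusted count of 0 was 0 to 1. With the median log2 level over genes, the ATF4/CHOP arm differed by 0.132 and the contrast of chaperones with it by -0.155. The 0.132 is the difference of Trib3, the middle gene of that arm by level in every mouse. Mice were not treated as paired by number. Same-numbered mice had correlations of deviations of 0.08, -0.238, 0.085 and 0.075, which with 4 mice a group cannot exclude a shared batch. The replicate block could not turn the direction of a member, since in this balanced design it leaves each group difference as it was. Array weights turned Sdf2l1 -0.0296, Sel1l -0.0135, Edem1 -0.0423, Sesn2 0.0501. Without exposed mice 2 and 4, 15 members turned: Calr 0.017, Pdia3 0.0137, Pdia6 0.0414, Dnajb9 -0.00962, Dnajb11 0.0493, Dnajc3 -0.00699, Dnajc10 -0.0191, Sdf2l1 -0.106, Syvn1 0.0384, Sel1l -0.0657, Edem1 -0.0237, Atf6 -0.0243, Ern1 -0.046, Ddit3 -0.0718, Sesn2 0.221. With 1 mouse left out, these members took both signs: Hspa5 -0.224 to 0.0869, Hsp90b1 -0.135 to 0.0411, Hyou1 -0.266 to 0.0362, Pdia6 -0.12 to 0.0962, Dnajb11 -0.156 to 0.0498, Dnajc3 -0.0776 to 0.287, Dnajc10 -0.0481 to 0.148, Sdf2l1 -0.221 to 0.162, Creld2 -0.257 to 0.196, Syvn1 -0.0672 to 0.0594, Sel1l -0.0744 to 0.0741, Edem1 -0.0914 to 0.0836, Xbp1 -0.00259 to 0.32, Atf6 -0.0486 to 0.133, Eif2ak3 -0.0594 to 0.0468, Sesn2 -0.238 to 0.134, Ppp1r15a -0.0377 to 0.0668. The other 13 members kept 1 sign: Calr -0.27 to -0.0135, Canx -0.164 to -0.0562, Pdia3 -0.183 to -0.0119, Dnajb9 0.0135 to 0.386, Herpud1 0.28 to 0.645, Derl1 -0.0916 to -0.0366, Derl3 0.174 to 0.887, Ern1 0.0374 to 0.259, Atf4 -0.25 to -0.0882, Ddit3 0.0284 to 0.221, Trib3 0.0612 to 0.187, Chac1 -0.32 to -0.113, Asns -0.713 to -0.361. The cause was not tested.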
